A study of Mus musculus with 18 samples.

Results

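A set of 10 sperm and spermatid transcripts was looked up in the RNA of single mouse 2-cell embryos, to ask whether RNA that sperm can carry into the egg was still counted there. They were chosen by RefSeq identifier, for their known use in spermatids and sperm: Prm1 (NM_013637), Prm2 (NM_008933), Tnp1 (NM_009407), Tnp2 (NM_013694), Smcp (NM_008574), Odf1 (NM_008757), Akap4 (NM_009651), Ldhc (NM_013580), Pgk2 (NM_031190) and Crisp2 (NM_009420). These are 10 of the 26823 transcripts listed for each embryo, and all 10 had an entry in all 18 embryos. The embryos came from natural matings of wild-type 129SVE females with males on the 129SVE background. The 18 embryos comprised 9 fathered by 3 wild-type males (numbers 1, 2 and 3) and 9 by 3 Parg(110)-/- males (numbers 6, 7 and 8), with 3 embryos per father. Embryos are named by father and embryo, so that 2-1 is an embryo of father 2. The genotype given for an embryo is that of its father. Parg(110)-/- males lack the nuclear form of poly(ADP-ribose) glycohydrolase, the enzyme that degrades poly(ADP-ribose), and their embryos received the disrupted allele from the father and a wild-type allele from the mother. The ages of the animals were not given in the sources used here.

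In the last phase of sperm formation the haploid spermatid exchanges its histones, first for transition proteins and then for protamines, and packs its DNA until transcription stops. Its messages are therefore made early, stored and translated later, and a remainder of this RNA is present in ejaculated sperm and can enter the egg at fertilization. The egg brings a far larger store of maternal RNA, much of which is degraded while the embryo begins its own transcription at the 2-cell stage.

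The coding sequence of Prm1, on mm9 within chr16:10796419-10796979, is shown as an example from the genes that pack the sperm nucleus. It is printed with its arginine codons in capitals, since the positive charge of arginine is what holds protamine on DNA.
Prm1: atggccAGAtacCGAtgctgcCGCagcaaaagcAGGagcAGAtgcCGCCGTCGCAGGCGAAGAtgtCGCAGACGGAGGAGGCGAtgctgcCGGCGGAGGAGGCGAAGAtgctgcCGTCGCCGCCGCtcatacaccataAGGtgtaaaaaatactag
Of its 51 codons, 28 encoded arginine (54.9%), against 10 of 332 codons (3.01%) in Ldhc.

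Counts on Ldhc and Pgk2 could be mistaken for those of their relatives, so the most similar stretches of the coding sequences are shown, with the bases that differ in capitals. The Ldhc stretch covers coding bases 550 to 609 and the Ldha stretch coding bases 637 to 696.
Ldhc: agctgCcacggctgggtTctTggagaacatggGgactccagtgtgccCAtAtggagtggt
Ldha: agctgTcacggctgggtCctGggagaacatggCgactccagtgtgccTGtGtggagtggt
Coding bases 67 to 126 are shown for both Pgk2 and Pgk1.
Pgk2: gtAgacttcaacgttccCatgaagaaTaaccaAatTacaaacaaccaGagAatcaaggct
Pgk1: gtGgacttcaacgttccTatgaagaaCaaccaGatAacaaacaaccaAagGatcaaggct
Each pair differed at 7 of 60 bases even here. Over the whole coding sequence Ldhc was 73.9% identical to Ldha and 65.2% identical to Ldhb, and Pgk2 was 79.3% identical to Pgk1. The longest identical runs were 20, 19 and 22 bases. The 10 transcripts were searched in stretches of 50 bases, with up to 1 mismatch, against the protein-coding transcripts of GENCODE vM1 (mm9). No stretch was found in a protein-coding transcript of another gene. Noncoding transcripts, pseudogenes and the rest of the genome were not searched, so copies there remain possible. None of the 10 genes overlapped another gene of that annotation. The read length was not given in the sources used here.

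Promoters were available from RefSeq (GRCm38.p6) for 9 of the 10 genes, with Odf1 missing. Ldhc, Prm1 and Tnp1 are shown as examples of promoters used in male germ cells, for 120 bases up to the start of transcription, with capitals marking TGACG and TGANGTCA on either strand. These are forms of the cyclic AMP response element, which the activator CREM binds in spermatids. They lie at chr7:46861143-46861262 (plus strand), chr16:10796824-10796943 (minus strand) and chr1:73015900-73016019 (minus strand).
Ldhc: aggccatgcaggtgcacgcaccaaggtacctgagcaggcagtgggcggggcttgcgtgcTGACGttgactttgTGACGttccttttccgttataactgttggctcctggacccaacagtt
Prm1: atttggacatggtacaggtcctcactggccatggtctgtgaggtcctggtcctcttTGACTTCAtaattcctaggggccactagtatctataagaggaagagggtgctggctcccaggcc
Tnp1: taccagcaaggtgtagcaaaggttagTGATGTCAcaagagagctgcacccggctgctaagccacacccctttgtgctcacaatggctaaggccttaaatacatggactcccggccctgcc
Within 250 bases before the start, TGACG was present in 1 of the 9 promoters (Ldhc), against 17.8% of 32851 mouse promoters. TGANGTCA, a form chosen after the sequences were seen, was present in 3 of 9 (Prm1, Tnp1 and Akap4), against 7.49% of all promoters. The full palindrome TGACGTCA, which both other forms overlap, was in none of the 9 and in 1.55% of all. TATAAA was in 2 of 9 (Prm2 and Crisp2) and in 12.4% of all.

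Totals lay between 2852858 and 13355161 counts per embryo in the wild-type group and between 3560501 and 12497060 in the Parg(110)-/- group, and 11823 to 16436 and 12064 to 14047 transcripts had at least 1 count. Embryo 2-1 had both the largest total and the most transcripts. At least 9 of 10 maternal oocyte markers were counted in every embryo, led by Nlrp5, a component of the maternal complex beneath the oocyte membrane, with a median of 398 CPM (counts scaled to a file total of 1000000). Of the 7 markers of 2-cell genome activation that could be matched, between 3 and 7 were counted, led by Tcstv3 (median 23.3 CPM). Parg RNA lay between 32.0 and 138 CPM in wild-type embryos and between 25.2 and 77.3 CPM in Parg(110)-/- embryos, and does not check the labels, because embryos of both groups carried a wild-type allele. Of 6 epididymis markers, 2 were counted, in the 3 embryos of father 6 (summed levels 0.0800, 6.79 and 0.459 CPM). The list was at 0 in the other 15 embryos, and Crisp1, Lcn5, Lcn8 and Spink5 were at 0 throughout. The 4 oviduct markers summed to 0 to 3.00 CPM in wild-type and 0 to 428 CPM in Parg(110)-/- embryos, where Ovgp1, a secreted oviduct glycoprotein, reached 4093 counts in embryo 6-2. The 8 cumulus cell markers summed to 0 to 10.8 CPM and 0 to 12.8 CPM. Among them, Ptx3, Tnfaip6, Fshr and Amh were at 0 throughout and Has2 was counted in 1 embryo. Inhba was counted in 6 embryos, and Cyp19a1 and Star in 10 each. The 5 Sertoli and Leydig cell markers summed to 0 to 10.2 CPM in wild-type and 0 to 5.64 CPM in Parg(110)-/- embryos. Of their combinations with an embryo, 14.4% had a count. Sox9 was counted in 6 embryos, Cyp17a1 in 5, and Insl3 and Hsd17b3 in 1 each, and Cldn11 was at 0 throughout. The 2 blood markers, Hba-a1 and Ptprc, summed to 0 to 1.11 CPM and 0 to 1.58 CPM. The part of these cells in the results below was not tested.

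Most of the sperm and spermatid transcripts were not counted in most embryos. In all, 4 of the 10 (Prm1, Tnp1, Tnp2 and Odf1) had 0 counts in all 18 embryos, 5 were counted in 1 to 3 embryos, and Ldhc alone was counted in at least 9. Of 180 combinations of transcript and embryo, 19 (10.6%) had a count, against 50.2% over all transcripts. Of all transcripts, 16.0% were counted in no embryo, 20.6% in 1 to 3 and 49.4% in at least 9. A library was made from a whole embryo, so fewer cells of a type and less RNA per cell cannot be told apart, nor can RNA left by sperm, stored by the egg or made by the embryo.

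**Figure D1:**
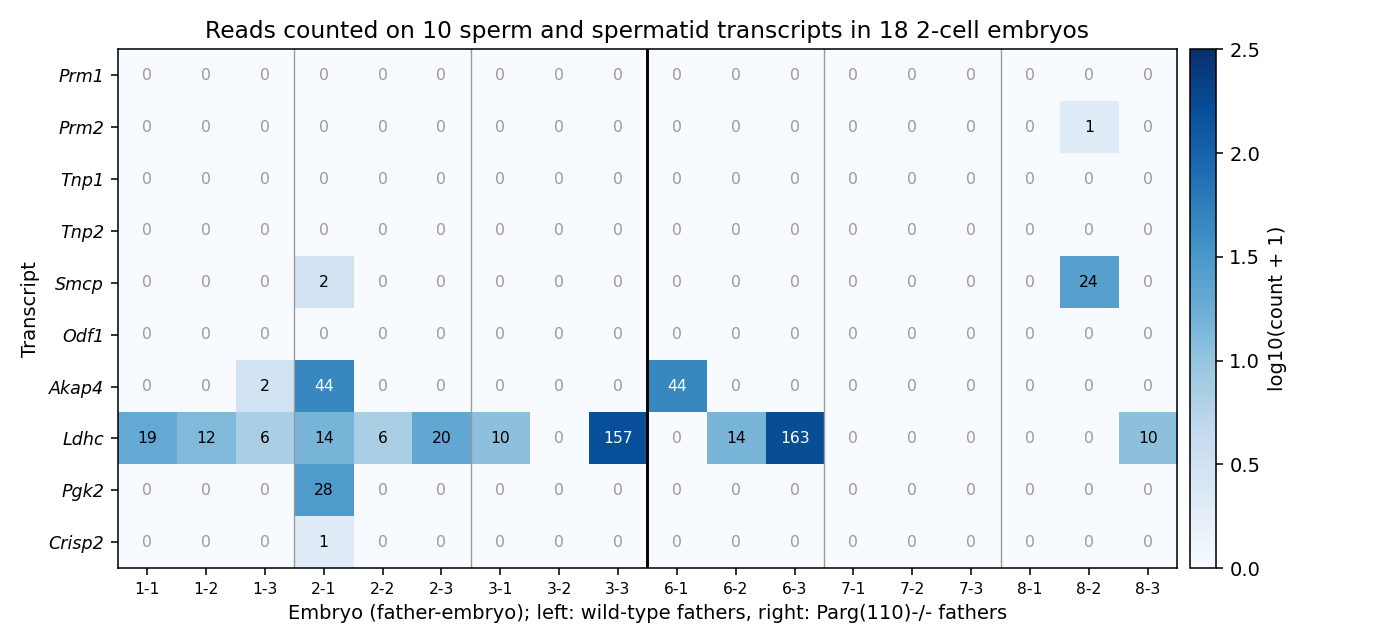
Reads counted on each of the 10 transcripts (rows) in each of the 18 embryos (columns, named father-embryo), with the count in each cell and its colour on a log10(count + 1) scale. Wild-type fathers are left of the black line and Parg(110)-/- fathers right of it. Ldhc fills 11 columns, while 4 transcripts are 0 throughout.

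The first group packs the sperm nucleus. Prm1 and Prm2 encode the protamines, and Tnp1 and Tnp2 the transition proteins that precede them. Prm1, Prm2 and Tnp2 lie within 8951 bases of each other on chromosome 16 (mm9, chr16:10788029-10796979), whereas Tnp1 lies alone at chr1:73061657-73062473. Prm1, Tnp1 and Tnp2 had no count in any embryo. A count of 0 allows up to 3 counts, or 0.0416 CPM over the 9 wild-type libraries together and 0.0439 CPM over the 9 Parg(110)-/- libraries. In a single embryo, 3 counts corresponded to between 0.225 CPM (embryo 2-1) and 1.05 CPM (embryo 2-3), so the pooled floors do not bound 1 embryo. Prm2 had a single count, in Parg(110)-/- embryo 8-2 (0.174 CPM, 95% Clopper-Pearson interval 0.00441 to 0.971), and 0 in the other 17 embryos. Because the cDNA was amplified, such intervals and floors cover counting error only. RNA of the other 3 nuclear proteins was not detected above these floors in either group.

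The second group builds the flagellum. Smcp (chr3:92387814-92392896) encodes a cysteine-rich protein of the mitochondrial capsule in the midpiece, Odf1 (chr15:38148958-38156490) a protein of the outer dense fibres, and Akap4 (chrX:6644645-6655735) the major protein of the fibrous sheath. Odf1 was at 0 in all 18 embryos, with the same floors as the nuclear proteins. Smcp had 2 counts in wild-type embryo 2-1 (0.150 CPM) and 24 counts in Parg(110)-/- embryo 8-2 (4.18 CPM, 95% Clopper-Pearson interval 2.68 to 6.22), with 0 elsewhere. Akap4 had 44 counts in wild-type embryo 2-1 (3.29 CPM), 44 counts in Parg(110)-/- embryo 6-1 (3.52 CPM) and 2 counts in wild-type embryo 1-3 (0.288 CPM). Each of these transcripts was thus high in 1 embryo of a group and at or near 0 in the rest, and the groups overlapped. Mean Smcp was 0.0166 ± 0.0499 CPM in wild-type and 0.465 ± 1.39 CPM in Parg(110)-/- embryos (SD, n = 9 each), and mean Akap4 was 0.398 ± 1.09 and 0.391 ± 1.17 CPM. With counts in so few embryos, a permutation test of the group difference has no power for either transcript, and no p is given. A second Akap4 isoform listed for each embryo had identical counts.

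Of the enzymes of sperm energy metabolism, Pgk2 (chr17:40343963-40345554) is the germ cell copy of phosphoglycerate kinase, an intronless gene derived from the X-linked Pgk1. Pgk2 had 28 counts in wild-type embryo 2-1 (2.10 CPM, 95% Clopper-Pearson interval 1.39 to 3.03) and 0 in the other 17 embryos. Crisp2 (chr17:40901683-40943952), a cysteine-rich secretory protein of the acrosome and tail, had 1 count, also in embryo 2-1 (0.0749 CPM). With counts in 1 embryo, a permutation test of the group difference has no power for either transcript.

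Ldhc was the one transcript counted in a majority of embryos. The gene lies at chr7:54116573-54133512 (mm9, 8 exons), 5575 bases from Ldha, and encodes the lactate dehydrogenase of male germ cells, which is also known in the oocyte. The wild-type embryos of father 1 had 1.67, 1.68 and 0.865 CPM. Those of father 2 had 1.05, 0.737 and 7.01 CPM, and those of father 3 had 1.74, 0 and 17.7 CPM. Thus 8 of 9 wild-type embryos had a count, and embryo 3-3, with 157 counts, stood above the rest. Among Parg(110)-/- embryos, those of father 6 had 0, 1.46 and 15.0 CPM, all 3 of father 7 had 0, and those of father 8 had 0, 0 and 1.39 CPM. Only 3 of 9 had a count, and embryo 6-3, with 163 counts, reached almost the level of embryo 3-3, so the groups overlapped over nearly their whole range.

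**Figure D2:**
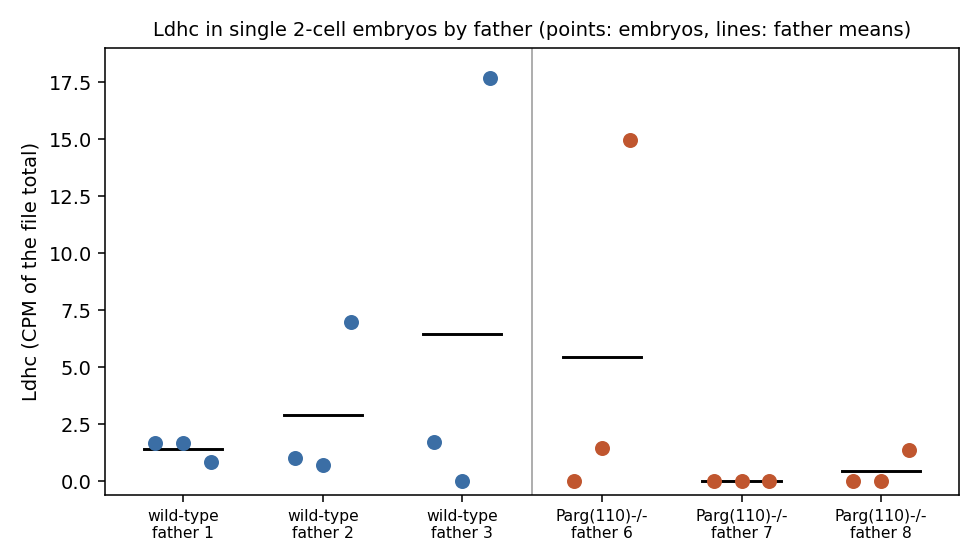
Ldhc in CPM of the file total for each embryo (points), grouped by father, with the mean of each father as a line. Wild-type fathers are blue and Parg(110)-/- fathers orange. One embryo of father 3 (17.7 CPM) and 1 of father 6 (15.0 CPM) lie far above the others, and all 3 embryos of father 7 are at 0.

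Mean Ldhc was 3.60 ± 5.65 CPM in wild-type and 1.98 ± 4.91 CPM in Parg(110)-/- embryos (SD, n = 9 each). The difference of -1.62 CPM was smaller than either SD (two-sided exact permutation test, p = 0.477 over embryos and 0.5 over fathers, where the smallest possible p is 0.1). The father means were 1.40, 2.93 and 6.47 CPM for the wild-type males and 5.47, 0 and 0.464 CPM for the Parg(110)-/- males. Without father 6 the difference was -3.37 CPM (exact permutation test over embryos, p = 0.00999), and without father 3 it was -0.189 CPM. The p without father 6 treats embryos of 1 father as independent. A test over fathers could not reach 0.05 there, since its smallest p is 0.1 even with all 6 fathers. Ldhc was also the one member that reached 10 counts in 3 or more embryos, and so the one tested by edgeR's quasi-likelihood test. Its log2 fold change (Parg(110)-/- against wild-type) was -0.81 with a standard error of 1.44 (Benjamini-Hochberg adjusted p = 0.980). Standard errors given with edgeR, here and below, were derived from the log2 fold change and the F statistic of the test. None of the members was called at an adjusted p below 0.1, and 0% of the 15333 transcripts tested were. At an unadjusted p below 0.05, edgeR had 889 transcripts (5.8%), Ldhc not among them, and DESeq2 had 1078 (7.03%). At an adjusted p below 0.1, DESeq2 called 38 of all transcripts. DESeq2 gave Ldhc, the only member tested, no adjusted p, so no member could be called there.

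The number of embryos with an Ldhc count, 8 against 3, had a two-sided Fisher's exact p = 0.0498 over embryos, in a test added after these counts were seen. The adjusted p over 15629 transcripts counted in some but not all embryos was 1 (Benjamini-Hochberg over the Fisher exact tests), and an exact permutation test over fathers gave p = 0.2. Of these 15629 transcripts, 1.31% were counted in more wild-type embryos at an unadjusted p below 0.05 and 0.102% in more Parg(110)-/- embryos. A transcript of this kind was counted in 4.13 wild-type and 3.43 Parg(110)-/- embryos on average, so detection was broader in the wild-type libraries as a whole. When all libraries were thinned to the smallest total, Ldhc was still counted in 8 and 3 embryos.

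Per length of transcript, Ldhc was low beside its relative of the egg. RPKM (CPM divided by the transcript length in kilobases) averaged 2.63 ± 4.13 for Ldhc in wild-type and 1.44 ± 3.58 in Parg(110)-/- embryos (SD, n = 9 each). Ldhb, the subunit that predominates in the oocyte, averaged 76.5 ± 25.1 and 82.4 ± 23.1 RPKM and was counted in all 18 embryos. Ldha averaged 1.92 ± 3.01 and 3.39 ± 3.69 RPKM and was counted in 15 embryos, against 11 for Ldhc. The difference between Ldhc and Ldha within embryos was not tested. Pgk1 averaged 0.308 ± 0.256 and 0.391 ± 0.804 RPKM, and Pgk2 0.146 ± 0.439 and 0 RPKM. In edgeR, neither Ldhb (log2 fold change 0.11, standard error 0.27, Benjamini-Hochberg adjusted p = 0.997) nor Ldha (0.84, standard error 1.17, adjusted p = 0.976) was called. The transcripts of other genes most like Ldhc across the 18 embryos were Zfp142 (Spearman's rho 0.862), Tbc1d10a (0.794) and Lyrm2 (0.781), the 3 highest of 15333 transcripts, over embryos in which they share library and depth with Ldhc.

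Taken by embryo, 5 of 18 had no member at all (3-2, 7-1, 7-2, 7-3 and 8-1), and in 9 Ldhc was the only one. Members other than Ldhc were found in 4 embryos, 1-3, 2-1, 6-1 and 8-2. The mean number of members per embryo was 1.44 ± 1.42 in the wild-type and 0.667 ± 0.707 in the Parg(110)-/- group (SD, n = 9 each). That was 14.4% and 6.67% of the combinations, against 52.5% and 47.9% over all transcripts. This difference was not tested. The summed level had a median of 1.68 CPM (0 to 17.7) in wild-type and 1.39 CPM (0 to 15.0) in Parg(110)-/- embryos. Embryo 2-1 held 5 members, and it was the deepest library. Of the 2577 transcripts counted in exactly 1 embryo, 402 (15.6%) were counted in embryo 2-1, and their median count over all embryos was 6. Without embryo 2-1, the wild-type mean was 1 member per embryo, and 4 rather than 6 members were counted in some embryo.

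**Figure D3:**
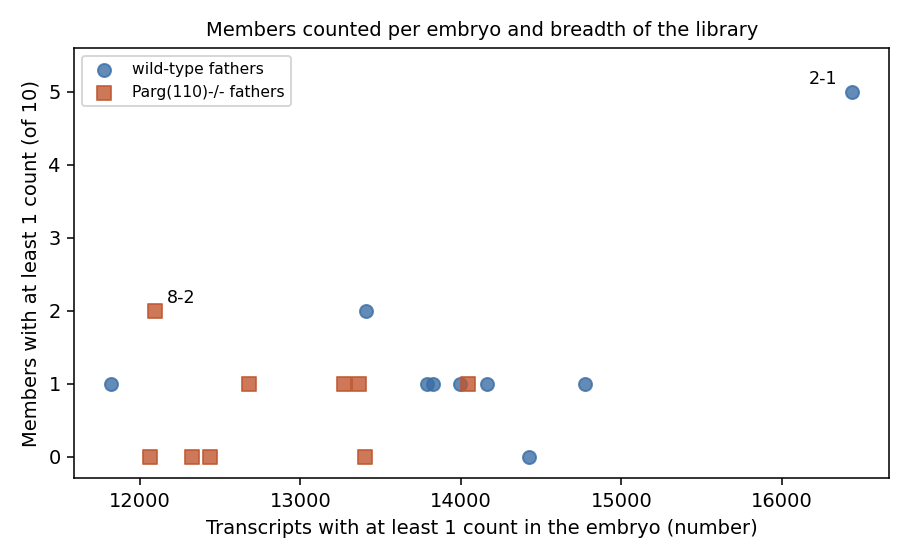
Number of the 10 members with at least 1 count (vertical axis) against the number of transcripts with at least 1 count in the same embryo (horizontal axis). Circles are embryos of wild-type fathers and squares those of Parg(110)-/- fathers. Embryo 2-1 stands apart on both axes, with 16436 transcripts and 5 members, and no other embryo exceeds 2.

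Other genes of the same programme were counted somewhat more often. Of 39 other spermatid and sperm transcripts, 20.4% of the combinations with an embryo had a count, 9 transcripts were counted in no embryo and 4 in at least 9. The number counted per embryo was 4 to 12 (median 11) in wild-type and 4 to 10 (median 6) in Parg(110)-/- embryos. By group, 25.1% and 15.7% of the combinations had a count, against 52.5% and 47.9% over all transcripts. This difference was not tested. Odf2, a protein of the outer dense fibres that is also part of the centrosome of other cells, was counted in all 18 embryos (median 559 CPM). Of the 39, 9 were tested by edgeR and none was called. Of 16 meiotic transcripts, 57.6% of the combinations had a count, led by Sycp2 of the synaptonemal complex (median 56.7 CPM), and none of the 10 tested was called.

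A list of genes known mainly from adult somatic tissues was counted unevenly. Of its 20 transcripts, 27.5% of the combinations had a count, 7 were counted in no embryo and 5 in at least 9. The list was led by Ttn, the giant protein of muscle sarcomeres, which was counted in all 18 embryos (median 2919 CPM), and Cpa1, a pancreatic carboxypeptidase named after its values were seen, was counted in 17. The list was therefore not a reference for absent RNA. The members' 10.6% was thus below the shares of both the other spermatid genes and the somatic genes, and no test of these differences was made.

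**Figure D4:**
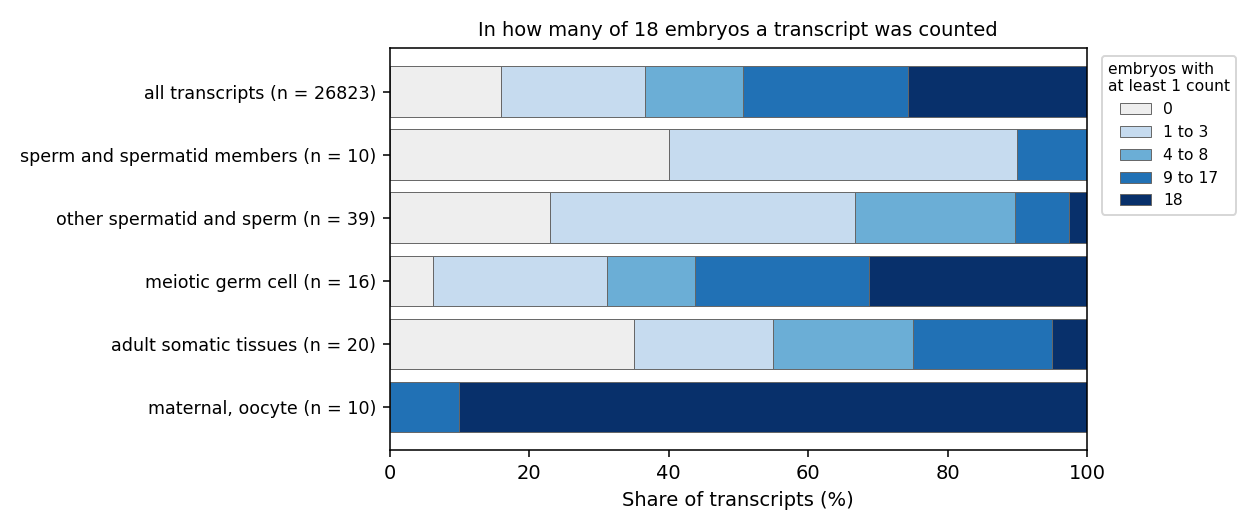
Share of the transcripts of each list (horizontal axis, %) that had at least 1 count in 0, 1 to 3, 4 to 8, 9 to 17 or all 18 embryos, from light to dark, with the number of transcripts in brackets. Of the 10 members, 40% fall in the lightest class, against 16.0% of all transcripts, while 90% of the maternal oocyte markers were counted in all 18 embryos.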

How the data were processed

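RNA of single 2-cell embryos was amplified as cDNA and sequenced on an Illumina instrument. The authors mapped the reads to mm9 with RUM, allowing up to 1 mismatch and leaving out reads without a unique position. The counts per RefSeq transcript that they deposited are not normalized. The submitters' processing notes name DESeq 1.10.0. Amplification from 1 embryo can lose rare transcripts and inflate others.

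The 10 members and all lists were chosen with earlier results of these data known. Symbols were matched for 26136 of 26823 identifiers. Usp17le, Hbb-b1, Cd68, Rhox5 and H1f9 are not analysed here. CPM is the count scaled to a file total of 1000000, and RPKM divides it by the GENCODE vM1 transcript length. All 18 embryos were tested with edgeR 4.0.16 in R 4.3.3 (TMM, 10 or more counts in 3 or more embryos, Benjamini-Hochberg over all transcripts, adjusted p below 0.1 as in the study), which was tested on simulated data. Exact permutation tests (scipy 1.17.1) compared CPM means over embryos, which treats embryos of 1 father as independent, and over the 6 fathers. Alternatives used DESeq2 1.42.0, limma 3.58.1 and others named in the closing section. Named genes were the members, their paralogs, the highest median CPM and any called transcript of each list, and the 3 transcripts most like Ldhc by Spearman correlation of log2(CPM + 1). Ovgp1 was the highest of its list. Embryo numbers paired nothing: the median correlation of deviations was 0.00248 for embryos of the 2 groups with the same number and -0.00166 for others.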

Additional observations from a re-analysis of the deposited data

Results flagged for a closer look

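Among 19 combinations of a measure and a group of 9 embryos, 13 had 1 embryo set apart from the others by more than Dixon's 95% critical value, which chance exceeds in about 1 of 20 groups of normally distributed values. That rate does not apply to measures that are mostly 0, as most of these are. In 6 of these the embryo was the only one of its group with a count, so that its distance spans the whole range. Wild-type embryo 2-1 stood apart in the number of members counted (5) and in Smcp (0.150 CPM), Akap4 (3.29 CPM), Pgk2 (2.10 CPM) and Crisp2 (0.0749 CPM). Wild-type embryo 3-3 stood apart in Ldhc and in the summed level of the members (17.7 CPM for each, since Ldhc was its only member). Parg(110)-/- embryo 6-3 did so in the same measures (15.0 CPM for each). Parg(110)-/- embryo 8-2 stood apart in the number of members counted (2), in Prm2 (0.174 CPM) and in Smcp (4.18 CPM), and Parg(110)-/- embryo 6-1 in Akap4 (3.52 CPM).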

How the results depend on the processing

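No member was called under any of 13 alternatives to the edgeR test, with 0 members called in each. Ldhc was the only member tested in all of them except the fit without a filter, so the other members could not be called there. DESeq2 gave Ldhc no adjusted p, so Ldhc could not be called in that fit either. A threshold of 0.05 could add no call to the main fit. The log2 fold change of Ldhc stayed negative, between -3.73 and -0.12 (adjusted p between 0.650 and 1.00, not given by DESeq2). Of all transcripts, edgeR called 0, 5 without father 6, and DESeq2 38. With the embryo number as a replicate block the log2 fold change of Ldhc was -1.86 with 0 members called, and no other call changed. With the father as a random effect in limma it was -2.47 (unadjusted p = 0.0433, adjusted p = 0.741). The median of all transcripts was -0.19 there, and 6.61% of them had an unadjusted p below 0.05. Without father 6, edgeR gave Ldhc an unadjusted p = 0.0409, and 7.28% of all transcripts were below 0.05. Without a filter 6 members were tested by edgeR, with adjusted p between 0.104 (Pgk2, counted in 1 embryo) and 0.996 (Akap4). The lowest adjusted p of all 22526 transcripts in that fit was also 0.104. At an unadjusted p below 0.05 it had 2 of the members, Pgk2 and Smcp, and 19.7% of all transcripts. The CPM difference of Ldhc ranged from -3.37 to -0.189 CPM with a father left out. It passed an exact permutation p of 0.05 over embryos only without father 6. The CPM difference of Smcp ranged from -0.0166 to 0.680 CPM and that of Akap4 from -0.398 to 0.343 CPM. On TMM library sizes Akap4 was at 0.00868 CPM. These sign changes followed from leaving out the embryo that held most counts or, for Akap4, from a difference near 0. Without father 8 Prm2 had no count left, and without father 2 neither Pgk2 nor Crisp2 had any. The number of members counted in some embryo was 4 to 6 for minimums of 1, 2, 5 or 10 counts and 5 in thinned libraries. Depth limits the transcripts at 0 to the floors given with them.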
